A study of Mus musculus with 6 samples.

Results

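Genes of glycine, serine and one-carbon metabolism were examined in mammary epithelial cells (MECs) of wild-type mice and of IL-21isoTg mice, whose transgene encodes an isoform of the cytokine IL-21. The 34 genes were taken by symbol from the 55487 genes of the count table. They comprise the glycine cleavage system (4 genes), serine synthesis (3), the serine hydroxymethyltransferases (2), the folate enzymes and carriers (10), the methionine cycle (9), transsulfuration (2) and glycine and serine transport (4).

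The 6 libraries, 1 per mouse, came from 3 wild-type (WT) mice, named WT 1 to WT 3, and 3 IL-21isoTg mice, named IL-21isoTg 1 to IL-21isoTg 3. All were 10-week-old BALB/c females. Expression of the IL-21 isoform is described as specific to T cells, so MECs are not the cells meant to express the transgene, and the promoter that drives it is not given in the sources used here. In both genotypes the mammary glands were digested with enzymes, and antibodies to CD45, CD31 and CD140a with magnetic beads were used to take out leukocytes, endothelial cells and fibroblasts. What remained was called MECs, with no positive selection for an epithelial marker. Poly(A)-selected RNA was sequenced and the reads falling on each gene were counted.

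Serine is made from a glycolytic intermediate by PHGDH, PSAT1 and PSPH, and the serine hydroxymethyltransferases convert it to glycine while passing a one-carbon unit to tetrahydrofolate. The glycine cleavage system, a mitochondrial complex of P-, T-, H- and L-proteins, breaks glycine down to carbon dioxide and ammonia and passes a further one-carbon unit to folate. Folate-bound units are used to make purines, thymidylate and, through the methionine cycle, S-adenosylmethionine, the methyl donor of the cell. Proliferating cells draw on these reactions for nucleotides, and secretory cells such as those of the lactating mammary gland take up large amounts of amino acids.

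The total count per library lay between 15902886 and 25719244, and 3 counts, the floor used here, equal 0.112 to 0.280 CPM (counts divided by the library size that TMM scaling gives). These limits cover counting error only. Il21, the gene behind the genotype, had 0, 0 and 37 counts in the WT mice and 795, 216 and 131 counts in the IL-21isoTg mice, so WT 3 was not free of it. Epithelial markers were present in every library: Epcam lay between 674 and 1144 CPM and Krt8 between 1630 and 3009 CPM. The removed cell types were still represented, with Pdgfra (CD140a) at 15.8 to 60.4 CPM, Pecam1 (CD31) at 20.6 to 86.2 CPM and Ptprc (CD45) at 2.16 to 9.40 CPM. A list of 17 genes typical of salivary glands took between 4.98% and 41.1% of the counts. The smallest shares were in WT 2 and IL-21isoTg 2, and the largest was in IL-21isoTg 3.

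The filter on low counts left 31 of the 34 genes for testing. Bhmt, the betaine-homocysteine methyltransferase, and Dmgdh, dimethylglycine dehydrogenase, had 0 counts in all 6 libraries, which allows no more than the level of 3 counts given above. Ftcd, a folate enzyme of histidine breakdown, had 5 counts over all libraries. Wild-type and IL-21isoTg MECs were compared by the quasi-likelihood test of edgeR, adjusted (Benjamini-Hochberg) over the 17165 genes tested and calls at an adjusted p under 0.05. By this test 0 of the 31 genes passed, and 0 of the 17165 genes did (0%). The smallest adjusted p over all genes was 0.126, and Gldc was among the genes that shared it. At an unadjusted p under 0.05, 3 of the 31 genes were higher in IL-21isoTg MECs (Gldc, Slc1a5 and Slc6a9) and 0 were lower, beside 5.82% of all genes (3.19% higher and 2.63% lower). Leaving out 1 mouse moved these counts. Gldc alone was left without IL-21isoTg 1 or without IL-21isoTg 3, 2 genes were higher without WT 2 or WT 3, and 5 without WT 1. Without IL-21isoTg 2, 8 were higher and 2 lower (Mthfd1 and Mthfd1l). The log2 fold change was above 0 for 19 of the 31 genes and for 47.9% of all genes. The median log2 fold change of the 31 was 0.037, and 0.034 without Gldc, beside -0.019 over all genes. The signs rested on IL-21isoTg 3: without this mouse 9 of the 31 were above 0 and the median was -0.085. Without WT 2 the figures were 13 and -0.026, and without WT 3 and IL-21isoTg 3 together they were 11 and -0.12.

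**Figure D1:**
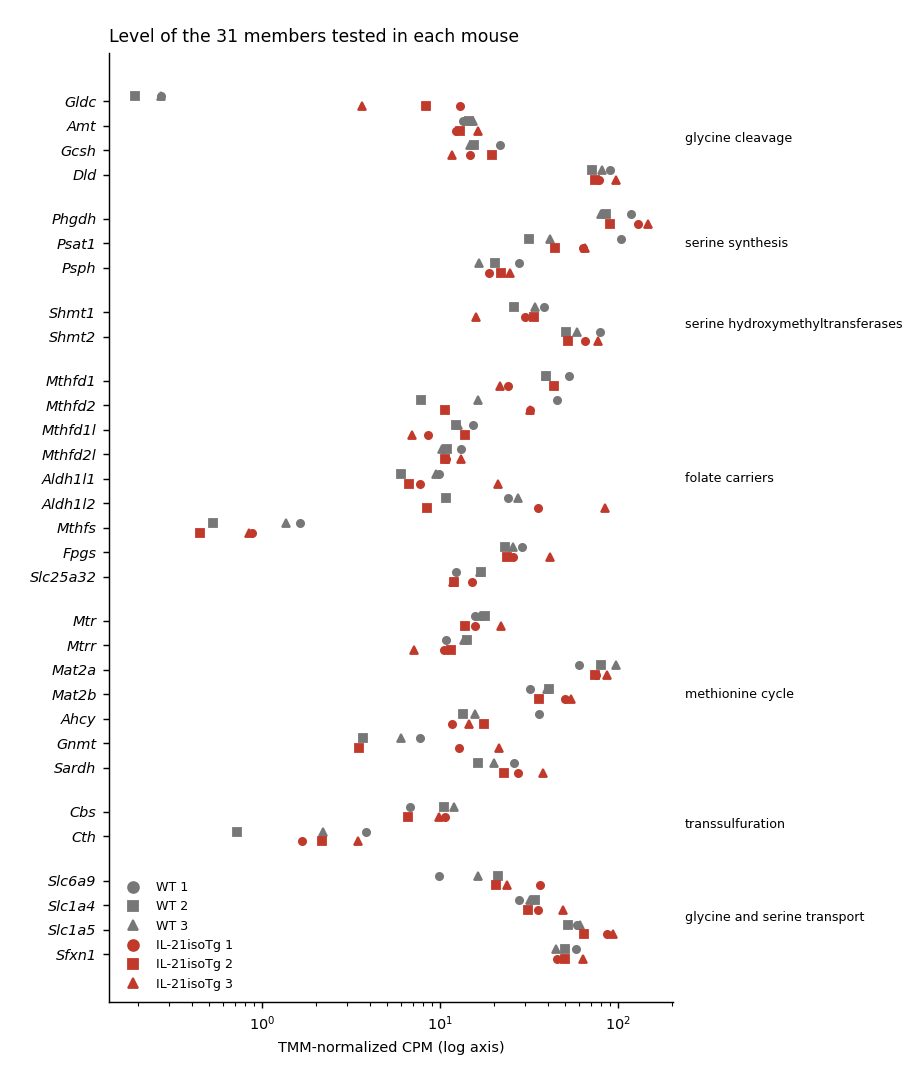
TMM-normalized CPM (log axis) of the 31 genes tested, grouped by role, with wild-type mice in grey, IL-21isoTg mice in red and a marker shape for each mouse number. Gldc is the gene whose genotypes lie far apart, with 0.192 to 0.271 CPM in the WT mice and 3.64 to 13.0 CPM in the IL-21isoTg mice.

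The comparison of the 4 glycine cleavage genes asked whether the parts of a single enzyme complex moved together. Gldc was separated between the genotypes, and Amt, Gcsh and Dld overlapped. Gldc (ENSMUSG00000024827) encodes the P-protein, the glycine decarboxylase that starts the reaction. It occupies chr19:30098447-30175429 of GRCm38 on the minus strand, with 25 exons after merging its 3 annotated transcripts. No other annotated gene overlaps its exons, and none of its 100-base stretches recurs in another annotated transcript. Gldc had 6, 4 and 6 counts in WT 1, WT 2 and WT 3, and 312, 222 and 39 counts in IL-21isoTg 1, IL-21isoTg 2 and IL-21isoTg 3. Every IL-21isoTg mouse lay above every WT mouse, and IL-21isoTg 3, the lowest of its group, also had the smallest library. The mean level of Gldc was 0.244 ± 0.0451 CPM (SD, n = 3 mice) in WT MECs and that in IL-21isoTg MECs was 8.29 ± 4.67 CPM (SD, n = 3). The fitted difference was 33.3-fold, 5.06 on the log2 scale (standard error 0.57), with an unadjusted p of 2.21e-05 and an adjusted p of 0.126 by the edgeR quasi-likelihood test, so it did not pass. Each WT count was under the minimum count of 10, so the low-count filter kept Gldc through the IL-21isoTg mice alone. The size of the fold change rests on these few WT counts. Gldc passed with DESeq2 (log2 fold change 5.10, adjusted p = 7.66e-13), with the likelihood ratio test of edgeR (5.06, adjusted p = 1.97e-10) and with the quasi-likelihood test on all genes with a count (5.05, adjusted p = 0.000130). These called 0.466%, 0.379% and 0.0485% of the genes they tested.

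The other 3 parts of the complex overlapped between the genotypes. Amt, the T-protein that hands the one-carbon unit to tetrahydrofolate, was at 13.4, 14.5 and 15.3 CPM in the WT mice and at 12.2, 13.0 and 16.2 CPM in the IL-21isoTg mice. Gcsh, the lipoyl-carrying H-protein, was at 21.7, 15.4 and 14.7 CPM against 14.7, 19.4 and 11.6 CPM. Dld, the L-protein that is shared with the pyruvate and 2-oxoglutarate dehydrogenase complexes, was at 89.6, 71.4 and 80.5 CPM against 78.3, 73.5 and 97.0 CPM. For none of these genes did the mice fall into 2 separate groups. Their log2 fold changes were -0.06 (standard error 0.20) for Amt, -0.18 (0.26) for Gcsh and 0.04 (0.17) for Dld, with adjusted p-values of 0.917 to 0.972 by the edgeR quasi-likelihood test.

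The 4 genes can be set on one scale by dividing CPM by the length of all annotated exons in kb. In WT MECs, Gldc was at 0.0401 ± 0.0074 CPM per kb (SD, n = 3), the lowest of the 31 genes, while Amt was at 5.90 ± 0.402, Gcsh at 10.9 ± 2.44 and Dld at 21.9 ± 2.47 CPM per kb. In IL-21isoTg MECs, Gldc was at 1.36 ± 0.766 CPM per kb and ranked 28 of 31, still below Amt at 5.66 ± 0.875, Gcsh at 9.64 ± 2.51 and Dld at 22.5 ± 3.37 CPM per kb. The P-protein transcript was the scarcest of the complex in both genotypes. As a percentage of Amt per kb, Gldc was 0.811, 0.530 and 0.706 in WT 1, WT 2 and WT 3, then 42.5, 25.5 and 8.97 in IL-21isoTg 1, IL-21isoTg 2 and IL-21isoTg 3. Against Gcsh the percentages were 0.323, 0.324 and 0.476, then 22.9, 11.0 and 8.15. Against Dld they were 0.183, 0.163 and 0.203, then 10.0, 6.80 and 2.27. In all 3 ratios every IL-21isoTg mouse lay above every WT mouse. This follows from the Gldc levels, because Amt, Gcsh and Dld differed far less, and the ratios are not separate evidence. The mean log2 ratios to Amt, Gcsh and Dld were higher in IL-21isoTg MECs by 4.99, 5.11 and 4.88. Each had p = 0.1 in an exact permutation test (two-sided), the smallest value that 3 mice against 3 allow, and p = 0.233 after Benjamini-Hochberg adjustment over the 7 ratios compared.

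**Figure D2:**
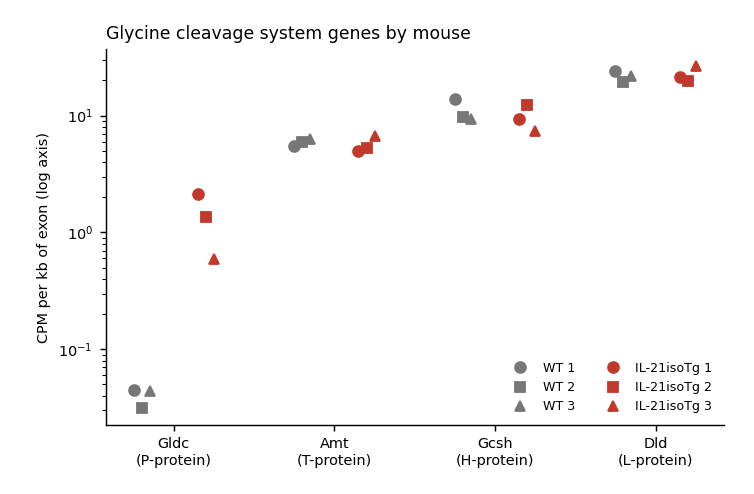
CPM per kb of exon (log axis) of the 4 glycine cleavage genes in each mouse, wild-type in grey and IL-21isoTg in red. Amt, Gcsh and Dld overlap between the genotypes, whereas Gldc lies at about 0.04 CPM per kb in the WT mice and at 0.597 to 2.13 CPM per kb in the IL-21isoTg mice, below the other 3 genes in every mouse.

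The regions upstream of these 4 start sites are shown because the genotypes were separated for Gldc and overlapped for the other 3 genes of the complex. RefSeq promoters of GRCm38.p6 were matched by symbol for 30 of the 34 genes. Slc25a32, Aldh1l2, Cth and Slc1a5 had no entry. Printed here are the 250 bases before each RefSeq start site, on the strand of the gene: chr19:30175442-30175691 (minus) for Gldc, chr9:108296655-108296904 (plus) for Amt, chr8:116993499-116993748 (minus) for Gcsh and chr12:31351472-31351721 (minus) for Dld. Capitals mark the letters CCAAT, or ATTGG where the match is on the other strand.
Gldc: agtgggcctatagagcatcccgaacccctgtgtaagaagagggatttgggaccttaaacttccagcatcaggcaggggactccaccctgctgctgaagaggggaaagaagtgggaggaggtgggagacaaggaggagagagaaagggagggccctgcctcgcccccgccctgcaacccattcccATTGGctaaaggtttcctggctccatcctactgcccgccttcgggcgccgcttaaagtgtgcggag
Amt: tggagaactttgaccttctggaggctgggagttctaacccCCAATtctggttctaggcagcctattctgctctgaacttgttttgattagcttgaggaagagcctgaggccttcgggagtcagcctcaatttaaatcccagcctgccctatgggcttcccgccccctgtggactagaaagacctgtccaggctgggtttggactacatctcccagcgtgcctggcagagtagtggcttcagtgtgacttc
Gcsh: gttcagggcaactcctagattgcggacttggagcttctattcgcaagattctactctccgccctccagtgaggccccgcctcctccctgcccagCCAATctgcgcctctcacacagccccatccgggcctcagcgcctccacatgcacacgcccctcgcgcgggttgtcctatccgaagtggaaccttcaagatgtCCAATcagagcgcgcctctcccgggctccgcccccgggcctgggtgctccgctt
Dld: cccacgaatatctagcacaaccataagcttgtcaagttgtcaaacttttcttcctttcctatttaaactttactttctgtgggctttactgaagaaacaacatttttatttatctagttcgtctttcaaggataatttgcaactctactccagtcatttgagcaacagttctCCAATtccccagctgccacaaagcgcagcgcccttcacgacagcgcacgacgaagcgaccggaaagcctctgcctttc
The search covered 250 bases before and 50 bases after each start site, on both strands. The table holds 35 promoters for the 30 genes, and CCAAT was found in 22 of the 35, beside 37.4% of all 32851 RefSeq promoters of the same length. With 1 promoter per gene, the one nearest to the annotated gene start, CCAAT was found for 21 of the 30 genes, the 4 glycine cleavage genes included. TGATGNAA, the core of an element bound by C/EBP and ATF factors, was found in Slc1a4 alone, beside 3.97% of all promoters. CACGTG was found in Cbs alone (7.15% of all promoters) and TTCNNNGAA, the spaced palindrome that STAT factors bind, in Shmt2 alone (8.3%). Of the motifs searched, the Gldc, Amt, Gcsh and Dld windows held CCAAT alone, and the window of Dld held a further copy after its start site that is not printed.

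Markers of other cell types and of secretion were set beside Gldc. The summed level of 8 milk protein genes was 538, 523 and 1733 CPM in the WT mice and 20366, 15762 and 8818 CPM in the IL-21isoTg mice. The genotypes did not overlap, and the order among the IL-21isoTg mice was that of Gldc. WT 3, with 11565 Csn2 counts against 321 and 209 in the other WT mice, had 6 Gldc counts, no more than WT 1. Gldc counts of 4 to 6 per WT mouse are too few to show a small difference. The milk protein sum of WT 3 also lay below that of every IL-21isoTg mouse. The summed level of 6 adipocyte genes was 25.8, 68.2 and 28.2 CPM, then 197, 101 and 30.1 CPM. Their defining members were sparse: Adipoq had 0, 5 and 6 counts, then 207, 24 and 1, and Cidec had 0, 6 and 15 counts, then 382, 44 and 0. The adipocyte sums overlapped between the genotypes. The order of Gldc among the IL-21isoTg mice was also that of the adipocyte, endothelial and basal epithelial sums. It was not that of the fibroblast or leukocyte sums. The 7 fibroblast genes summed to 1952, 3449 and 3118 CPM, then 4975, 4315 and 4340 CPM, also without overlap. The 5 endothelial genes summed to 55.7, 149 and 66.1 CPM, then 248, 188 and 95.2 CPM. The 8 leukocyte genes summed to 15.4 to 31.8 CPM and 22.4 to 32.8 CPM. The 7 basal epithelial genes summed to 1372, 1846 and 1409 CPM, then 2785, 2448 and 1531 CPM, with overlap. The part of any of these levels in the Gldc difference was not tested, and in bulk RNA a different number of cells of a type and a different amount of RNA per cell cannot be told apart.

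Transport of glycine, serine and their exchange partners was the group in which all 4 tested members had a log2 fold change above 0 (median 0.40), apart from Sfxn1 when IL-21isoTg 3 or WT 3 was left out. Slc1a5 (ENSMUSG00000001918) encodes ASCT2, a plasma membrane exchanger of neutral amino acids such as glutamine and serine, and lies at chr7:16781340-16798274 on the plus strand. It was at 58.3, 51.9 and 61.0 CPM in the WT mice and at 85.8, 64.5 and 93.8 CPM in the IL-21isoTg mice. Every IL-21isoTg mouse again lay above every WT mouse, by a margin of a few CPM for IL-21isoTg 2. WT MECs had a mean of 57.1 ± 4.67 CPM (SD, n = 3) and IL-21isoTg MECs had 81.4 ± 15.1 CPM (SD, n = 3). The fitted difference was 0.51 on the log2 scale (standard error 0.18, unadjusted p = 0.0215, adjusted p = 0.809 by the edgeR quasi-likelihood test). Gldc and Slc1a5 were the 2 of 31 genes whose genotypes did not overlap with the IL-21isoTg mice higher, and 0 were apart in the other direction. Of all genes tested, 5.54% were apart with IL-21isoTg higher and 6.54% with IL-21isoTg lower.

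Slc6a9 encodes the glycine transporter GLYT1. It was at 9.83, 21.1 and 16.2 CPM in the WT mice and at 36.5, 20.5 and 23.7 CPM in the IL-21isoTg mice. IL-21isoTg 2 lay just below WT 2, so the genotypes overlapped. The log2 fold change was 0.77 (standard error 0.33, unadjusted p = 0.0461, adjusted p = 0.809 by the edgeR quasi-likelihood test). Ccdc24 on the opposite strand shares 1429 bp of exon with Slc6a9, and its own log2 fold change was 0.75 (unadjusted p = 0.0486 from the same fit). The library kit keeps strand, but whether the counting used it is not given in the sources used here, so reads of the shared stretch cannot be told apart. Slc1a4 (ASCT1, an exchanger of serine and other small neutral amino acids) differed by 0.29 on the log2 scale (standard error 0.20), and Sfxn1, the mitochondrial serine carrier, by 0.06 (0.18).

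Serine synthesis was well represented in both genotypes. Phgdh, which carries out its first step, was the most abundant of the 31 genes per length, at 38.1 ± 8.40 CPM per kb in WT MECs and 49.0 ± 11.7 CPM per kb in IL-21isoTg MECs (SD, n = 3 each). In CPM it was at 118, 85.6 and 79.7 in the WT mice and at 129, 89.5 and 146 in the IL-21isoTg mice, a difference of 0.36 on the log2 scale (standard error 0.24). The genotypes overlapped. Of its 100-base stretches, 28.1% recur in annotated copies, mainly Gm7901, which had 151 to 367 counts. Psat1 (phosphoserine aminotransferase) and Psph (phosphoserine phosphatase) had log2 fold changes of -0.03 (0.42) and 0.02 (0.23). Psat1 ranged from 31.7 to 103 CPM within the WT mice alone, with WT 1 highest.

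The serine hydroxymethyltransferases of the cytosol and of the mitochondrion both overlapped between the genotypes. The log2 fold change was -0.30 (standard error 0.29) for Shmt1, the cytosolic enzyme, and 0.04 (0.22) for Shmt2, the mitochondrial enzyme. Per kb, Shmt2 was at 2.59, 2.43 and 2.16 times the level of Shmt1 in the WT mice and at 2.73, 1.92 and 6.09 times in the IL-21isoTg mice. The ratio stood apart in IL-21isoTg 3 alone, and the genotypes overlapped (difference of the mean log2 ratios 0.41, exact permutation test, two-sided, p = 0.7).

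Among the folate enzymes, 5 of the 9 tested had a log2 fold change above 0 and 4 below, with a median of 0.01, and 0 had an unadjusted p under 0.05. The cytosolic trifunctional enzyme Mthfd1 was at 52.8, 39.0 and 39.2 CPM in the WT mice and at 24.1, 43.4 and 21.6 CPM in the IL-21isoTg mice, a log2 fold change of -0.55 (standard error 0.28, unadjusted p = 0.0881). Its mitochondrial counterpart Mthfd1l, which releases formate, had -0.45 (0.29), and the ratio of the 2 genes per kb ranged from 28.9% to 32.1% in the WT mice and from 31.9% to 35.3% in the IL-21isoTg mice (exact permutation test, two-sided, p = 0.3). IL-21isoTg 2 lay within the wild-type range for both genes, while IL-21isoTg 1 and IL-21isoTg 3 lay below it. Mthfd2 and Mthfd2l, paired mitochondrial dehydrogenases, had log2 fold changes of 0.10 (0.64) and 0.01 (0.21). Mthfd2 was among the most variable members, with 45.2, 7.83 and 16.3 CPM in the WT mice and 31.9, 10.7 and 31.9 CPM in the IL-21isoTg mice.

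The formyltetrahydrofolate dehydrogenases Aldh1l1 (cytosolic) and Aldh1l2 (mitochondrial), which release the one-carbon unit as carbon dioxide, had log2 fold changes of 0.47 (standard error 0.46) and 1.03 (0.71). Aldh1l2 was at 24.1, 10.7 and 27.4 CPM in the WT mice and at 35.3, 8.41 and 84.1 CPM in the IL-21isoTg mice. The highest and the lowest value both belonged to IL-21isoTg mice, and the log2 fold change was 0.10 without IL-21isoTg 3 and 1.52 without IL-21isoTg 2. It shares 1056 bp of exon with D10Wsu102e on the opposite strand, whose log2 fold change was 0.12. Fpgs, which adds glutamates to folate to keep it in the cell, had 0.22 (0.24), Slc25a32, the mitochondrial folate carrier, -0.24 (0.22), and Mthfs, which recycles 5-formyltetrahydrofolate, -0.71 (0.59). Mthfs was among the scarcest, at 0.447 to 1.62 CPM, and 10.8% of its 100-base stretches recur in other genes, mainly Mthfsl.

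In the methionine cycle, 4 of the 7 tested genes had a log2 fold change above 0. Gnmt and Sardh, which make sarcosine from glycine and turn it back, had the largest, 1.10 (standard error 0.59, unadjusted p = 0.100) and 0.49 (0.26, unadjusted p = 0.0916). Gnmt was at 7.67, 3.70 and 6.03 CPM in the WT mice and at 12.7, 3.50 and 21.4 CPM in the IL-21isoTg mice. IL-21isoTg 2 was again the lowest mouse, below all WT mice, and the log2 fold change of Gnmt was 0.50 without IL-21isoTg 3 and 1.55 without IL-21isoTg 2. Methionine synthase Mtr and its reductase Mtrr had log2 fold changes of 0.03 (0.22) and -0.40 (0.25), and the catalytic and regulatory subunits of methionine adenosyltransferase, Mat2a and Mat2b, had -0.01 (0.20) and 0.31 (0.20). Ahcy, which hydrolyses S-adenosylhomocysteine, had -0.57 (0.38), but 63.6% of its 100-base stretches recur in other annotated genes, mainly Gm4737. Gm4737 itself had 280 to 1643 counts and a log2 fold change of -0.55, so the Ahcy value is uncertain. The transsulfuration enzymes Cbs and Cth, which turn homocysteine into cysteine, had -0.11 (0.30) and 0.09 (0.61).

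**Figure D3:**
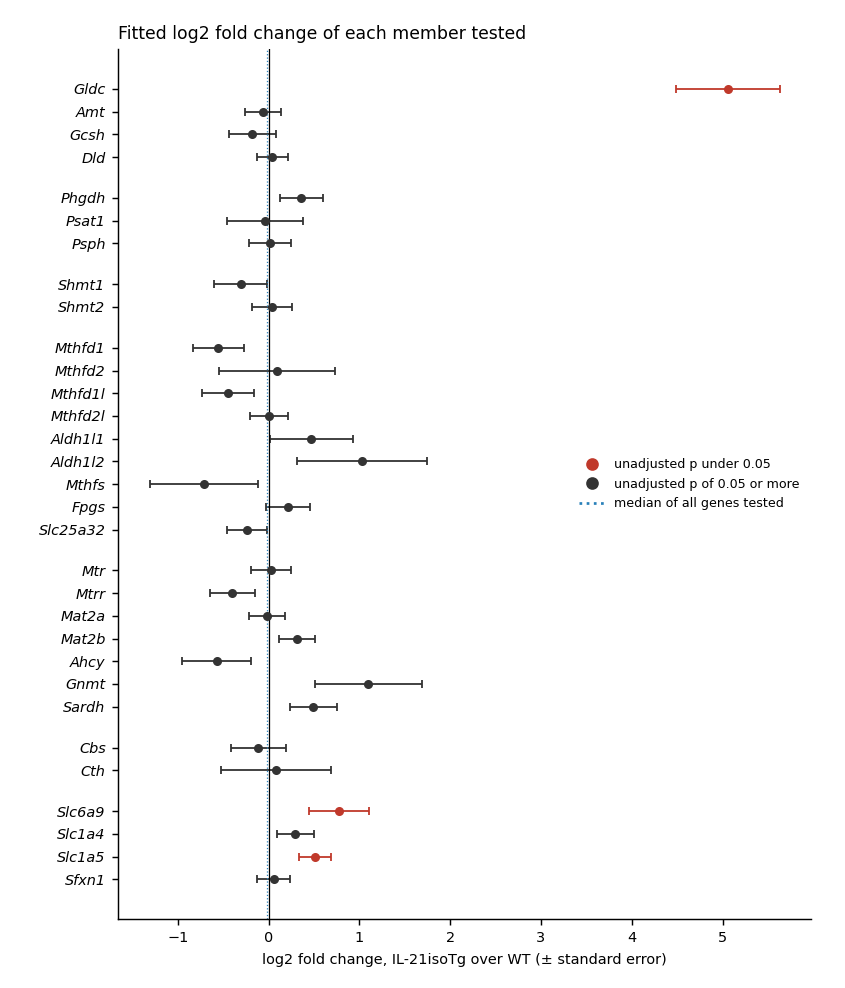
Fitted log2 fold change (IL-21isoTg over wild-type, horizontal axis) of the 31 genes tested with its standard error as bars, red where the unadjusted p was under 0.05. Gldc stands at 5.06, and the other 30 genes lie between -0.71 and 1.10.

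Several of these genes differed more between mice of the same genotype than between the genotypes, and the mice with low levels were often WT 2 and IL-21isoTg 2, which had the smallest salivary gland shares (6.68% and 4.98% of counts). The shares of WT 3 and WT 1 were 15.8% and 23.0%, and those of IL-21isoTg 1 and IL-21isoTg 3 were 22.6% and 41.1%. Of the 31 genes, 11 were lowest in the mouse with the smallest share in both genotypes, beside 10.5% of all genes. Dld, Psat1, Shmt2, Mthfd2, Aldh1l1, Fpgs, Gnmt and Sardh, 8 of the 31, had levels in the order of the share within both genotypes, beside 5.77% of all genes. In a fit with genotype and log2 of the share, 9 of the 31 genes had an unadjusted p under 0.05 with a rising level and 0 with a falling level, beside 5.1% and 3.72% of all genes.

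One of the 31, Aldh1l2, passed the adjusted threshold in that fit (1 of 31, beside 0.361% of all genes rising and 0.0233% falling). Its level rose by 0.99 on the log2 scale per doubling of the share (adjusted p = 0.0238 by the edgeR quasi-likelihood test). Gnmt had a slope of 0.79 per doubling and did not pass (adjusted p = 0.0552), and Mthfd2 had a slope of 0.77 (unadjusted p = 0.00507, adjusted p = 0.267). Gldc had a slope of -0.09 (unadjusted p = 0.735), and its genotype difference in the same fit was 5.07 (adjusted p = 0.152). The Aldh1l2 genotype difference was 0.28 in that fit, down from 1.03. Other genes moved otherwise: Gldc, Gnmt and Slc1a5 were higher in IL-21isoTg MECs at an unadjusted p under 0.05 in that fit. Gnmt was not among such genes without the share, and Slc6a9 no longer was with it. Without IL-21isoTg 3, the mouse with the largest share, 0 of all genes passed, while 2.36% had an unadjusted p under 0.05 with a rising and 1.29% with a falling level. Of the 9 genes with a rising level at an unadjusted p under 0.05 with all mice, only Aldh1l2, Gnmt and Mthfd2 stayed under 0.05. The slopes in that fit of 5 mice were 0.88 for Aldh1l2 (unadjusted p = 0.00181, adjusted p = 0.452 by the edgeR quasi-likelihood test), 0.75 for Gnmt and 1.00 for Mthfd2. The slope of Gldc turned positive, at 0.31 (unadjusted p = 0.154). Ggh, Asns and Chac1, which belong to neighbouring pathways and not to the 34, passed with all mice. Ggh, the lysosomal hydrolase that removes glutamates from folate, had a slope of 1.37 (adjusted p = 0.00842), Asns (asparagine synthetase) 0.77 (adjusted p = 0.0108) and Chac1, which degrades glutathione, 1.04 (adjusted p = 0.0148). Asns and Chac1 are known targets of the transcription factor ATF4, as are Mthfd2, Aldh1l2, Psat1 and Phgdh. Of a list of 14 ATF4 response genes, 5 rose at an unadjusted p under 0.05 and 0 fell, beside 5.1% and 3.72% of all genes. The median slope of the list was 0.22, and 2 of the 14 (Asns and Chac1) passed, beside 0.361% of all genes rising. Atf4 itself had a slope of 0.15 (unadjusted p = 0.240 by the edgeR quasi-likelihood test), and Atf5, Cebpb and Ddit4 had slopes below 0. A part of ATF4 was not tested. The share was taken from the same libraries as the levels, and whether it stands for salivary tissue in the preparation was not tested.

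**Figure D4:**
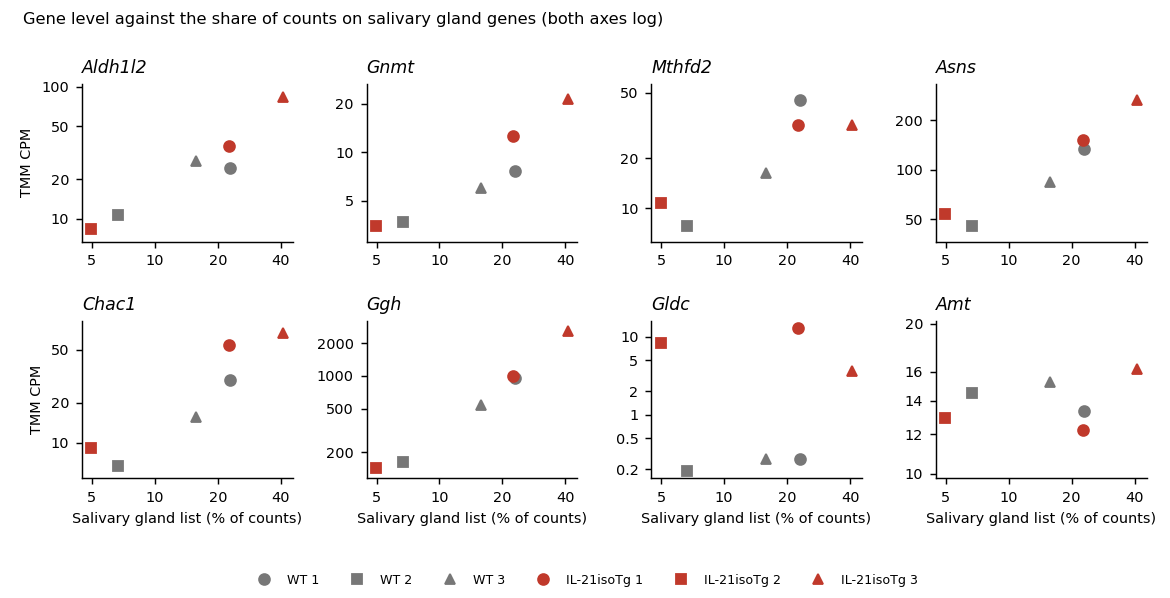
TMM-normalized CPM against the percentage of counts on 17 salivary gland genes (both axes log) for 8 genes, 1 point per mouse, wild-type in grey and IL-21isoTg in red. Aldh1l2, Gnmt, Asns, Chac1 and Ggh climb from the mice with about 5% to 7% to IL-21isoTg 3 with 41.1%, whereas Gldc separates by genotype and Amt shows no order.

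Another 79 genes of neighbouring pathways were read out of the same fit, 71 of them tested. By the edgeR quasi-likelihood test 0 passed, and at an unadjusted p under 0.05, 3 of the 71 were higher and 4 lower, beside 3.19% and 2.63% of all genes. The genotypes did not overlap for 3 of the 71 with IL-21isoTg higher and for 6 with IL-21isoTg lower. Of all genes tested, 5.54% and 6.54% were apart in these directions. Of the 11 other folate genes, 4 had a log2 fold change above 0 (median -0.11). Folr1, the folate receptor alpha that takes folate into epithelial cells, was at 29.7, 26.5 and 19.0 CPM in the WT mice and at 51.6, 46.9 and 59.6 CPM in the IL-21isoTg mice. The genotypes did not overlap, and the difference was 1.07 on the log2 scale (standard error 0.20, unadjusted p = 0.000795, adjusted p = 0.440). Folr1 passed with DESeq2 (adjusted p = 0.00778) and with the likelihood ratio test (adjusted p = 0.0127).

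The 9 genes of purine synthesis, the pathway that consumes formyl units from folate, all had a log2 fold change below 0, from -0.46 to -0.12 with a median of -0.37, beside -0.019 over all genes. Below 0 were 8 of the 9 without IL-21isoTg 3 and 7 without WT 1. None had an unadjusted p under 0.05, and for Gart, Pfas and Impdh2, 3 of the 9, every IL-21isoTg mouse lay below every WT mouse, beside 6.54% of all genes. Gart, which uses formyl-tetrahydrofolate, was at 59.8, 58.9 and 57.5 CPM in the WT mice and at 42.2, 56.4 and 30.0 CPM in the IL-21isoTg mice. Its log2 fold change was -0.45 (standard error 0.23), and IL-21isoTg 2 lay within a few CPM of the WT mice, as it did for Mthfd1.

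Of the 14 genes of the ATF4 response, 12 had a log2 fold change above 0 (median 0.22), and 10 to 13 did when 1 mouse was left out. Slc7a5 encodes LAT1, an exchanger that takes up large neutral amino acids. It was at 115, 82.8 and 85.2 CPM in the WT mice and at 257, 125 and 218 CPM in the IL-21isoTg mice, without overlap, and its log2 fold change was 1.08 (standard error 0.28, unadjusted p = 0.00498, adjusted p = 0.774). The stress gene Nupr1 had 0.87 (0.36, unadjusted p = 0.0413), and Atf4 itself had 0.02 (0.27). Slc7a5 and Nupr1 also rose with the salivary share in the fit with genotype and log2 of the share. The slope was 0.29 for Slc7a5 (unadjusted p = 0.0196, adjusted p = 0.431 by the edgeR quasi-likelihood test). That of Nupr1 was 0.41 (unadjusted p = 0.00240, adjusted p = 0.205 by the same test).

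Among 17 tested genes of methionine salvage, polyamines and choline (median -0.08), spermine synthase Sms was at 18.7, 18.9 and 18.0 CPM in the WT mice and at 10.3, 13.1 and 11.8 CPM in the IL-21isoTg mice. The genotypes did not overlap, and the log2 fold change was -0.66 (standard error 0.18, unadjusted p = 0.00682, adjusted p = 0.809 by the edgeR quasi-likelihood test). Amd1, which supplies the decarboxylated S-adenosylmethionine that Sms uses, had -0.54 (0.21, unadjusted p = 0.0314). Nnmt, a methyltransferase of nicotinamide, was scarce but did not overlap (0.586 to 0.913 CPM against 0.931 to 2.24 CPM). Of the 9 glutathione and cysteine genes (median -0.05), Gclm, a subunit of the enzyme that starts glutathione synthesis, had -0.42 (0.16, unadjusted p = 0.0327) without overlap. The 15 other serine and glycine genes tested lay between -0.32 and 0.32 (median -0.04), and 0 had an unadjusted p under 0.05.

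**Figure D5:**
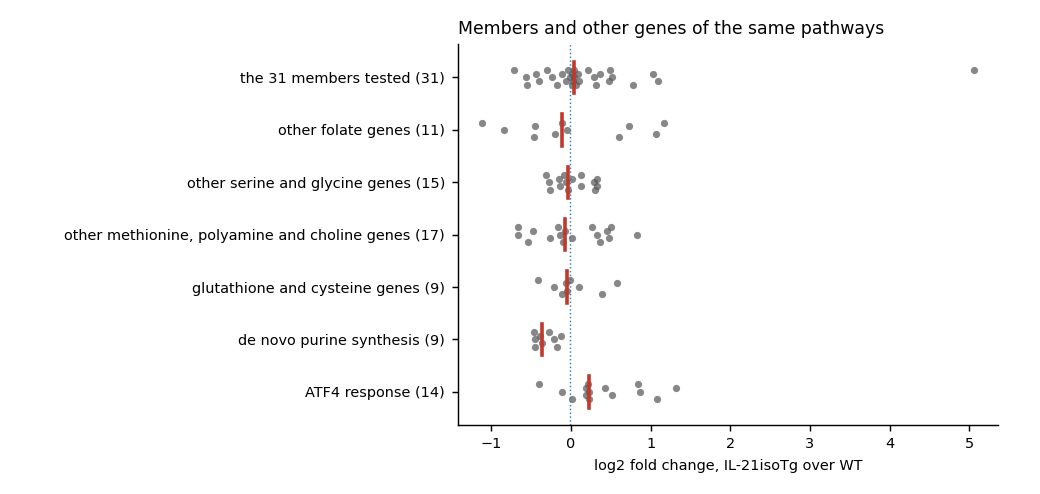
Fitted log2 fold change (IL-21isoTg over wild-type, horizontal axis) of each tested gene, as grey points, for the 31 genes and for 6 lists of neighbouring pathways, with the number tested in parentheses. Red bars mark the median of a list and the dotted line that of all genes tested (-0.019); the purine list lies to its left and the ATF4 list mostly to its right.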

How the data were processed

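RNA from MECs of 3 WT and 3 IL-21isoTg mice was sequenced. The authors deposited, without normalization, whole-number counts of reads per gene for each mouse. The submitters' processing notes name Trimmomatic 0.38, HISAT2 2.1.0, SAMtools 1.9, featureCounts 1.6.3 and DESeq2 1.24.0 with build mm10, without the strand or multimapping settings. A table of counts divided by size factors and the authors' comparison (fold changes and p-values) were not used, apart from gene positions, which the authors deposited with it and which were checked against GENCODE M21 (GRCm38): start and end were the same for 31020 of 31286 identifiers.

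Genes were filtered with filterByExpr (minimum count 10, minimum total 15), scaled with TMM and fitted with edgeR 4.0.16 (quasi-likelihood, robust, genotype as the only term), in R 4.3.3 with limma 3.58.1. The steps were tested on simulated counts, with the same spread between mice for every gene and changes placed only in genes above a minimum level. That run does not show how the test treats a difference in a gene with few counts, such as Gldc in WT MECs. Values of single mice were compared with exact permutation tests. Levels per kb used the summed length of merged exons. Total counts set the precision given in the report.

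The 34 genes and all lists were chosen with earlier results of these data known. Values by mouse are given for the glycine cleavage genes and for genes with an unadjusted p under 0.05 or with genotypes that do not overlap. In the other lists, such genes are named, up to 4 a list, apart from 1 that is not reported here. Other values by mouse, such as those of Aldh1l2, Gnmt and Mthfd2, and genes that overlap or resemble one of the 34 were picked once values had been seen. Alternatives were DESeq2's size factors, TMM without salivary gland genes, no filter, DESeq2 1.42.0, edgeR's likelihood ratio test, the salivary share as covariate, a block for the replicate number, and each mouse left out in turn. The labels do not say whether mice shared a litter or a processing day.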

Additional observations from a re-analysis of the deposited data

How the results depend on the processing

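With the main test 0 genes were called higher and 0 lower in IL-21isoTg MECs. The numbers called higher and lower were 72 and 8 with DESeq2 and 52 and 13 with the likelihood ratio test. Without a filter 14 were higher, and with the salivary share as covariate 1 was lower. Leaving out WT 3 and IL-21isoTg 3 together, chosen after seeing the data, gave 6 higher. Leaving out 1 mouse gave 0 to 6 higher, with 6 only without WT 3. Of the 34 genes, 1 (Gldc) was called without a filter, with DESeq2 and with the likelihood ratio test, and of the neighbouring pathways 1 (Folr1) with the latter pair. Gldc stayed between 4.58 and 5.42 (log2) when any mouse was left out, with adjusted p-values of 0.0840 to 0.637, and was 5.48 without WT 3 and IL-21isoTg 3 (adjusted p = 0.0883).

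Small log2 fold changes changed sign, and the cause was not tested. With the salivary share as covariate these were Shmt2 (-0.028), Mthfd2 (-0.0081), Mthfd2l (-0.020) and Mtr (-0.031). Without a filter Mthfd2l was -0.0029. Without WT 3 and IL-21isoTg 3, 12 of the 31 genes changed sign: Dld (-0.085), Psph (-0.24), Shmt2 (-0.15), Mthfd2 (-0.32), Mthfd2l (-0.16), Aldh1l1 (-0.14), Fpgs (-0.074), Mtr (-0.18), Cth (-0.25), Sfxn1 (-0.18), Mat2a (0.089) and Cbs (0.0032). Psat1 was 0.0034 with TMM without salivary gland genes, and Mat2a was 0.019 there, 0.0040 with DESeq2's size factors and 0.0037 with DESeq2. When a mouse was left out, the ranges were Amt -0.19 to 0.019, Gcsh -0.39 to 0.033, Dld -0.076 to 0.14, Psat1 -0.33 to 0.67, Psph -0.14 to 0.25, Shmt2 -0.096 to 0.25, Mthfd2 -0.32 to 1.05, Mthfd2l -0.086 to 0.13, Aldh1l1 -0.22 to 0.76, Fpgs -0.062 to 0.36, Mtr -0.17 to 0.16, Mat2a -0.16 to 0.16, Ahcy -0.82 to 0.016, Cbs -0.30 to 0.076, Cth -0.34 to 0.72 and Sfxn1 -0.085 to 0.17. For the log2 ratios they were -0.059 to 0.77 for Shmt2 to Shmt1, -0.28 to 0.86 for Mthfd2 to Mthfd2l and -0.053 to 0.87 for Aldh1l2 to Aldh1l1.

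Deviations of same-numbered mice from their group means correlated at -0.263, 0.0956 and -0.0556 across genes, and those of differently numbered mice at -0.270 to 0.261. The values showed no pairing by replicate number. They cannot tell whether same-numbered mice shared a litter or a processing day. With the replicate number as a block 0 genes were called higher and 0 lower, Gldc was 4.91 (adjusted p = 0.344), and Psat1 (0.14) and Mat2a (0.012) changed sign. The block changed no call, but the main fit had 0 calls to change. Low counts limit Mthfs, Cth and, in WT MECs, Gldc.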
